A study of Mus musculus with 5 samples.

Results

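Retinoic acid synthesis and clearance in the uterus was described through 9 genes of the 28666 listed in the count table, which were found by gene symbol, all of which were listed and had enough reads to be tested. They encode the retinol carrier Rbp4, the retinol uptake receptor Stra6, the cytosolic retinoic acid carrier Crabp2, the retinol dehydrogenase Rdh10, the retinaldehyde dehydrogenases Aldh1a1, Aldh1a2 and Aldh1a3, and the retinoic acid hydroxylases Cyp26a1 and Cyp26b1. RNA was sequenced from whole uteri of ICR females, 6 to 8 weeks old, after they were housed with vasectomized males of the C57BL/6 strain, so that the uterus met seminal plasma (SP) without sperm. Males of 12 to 18 months gave the aged-SP group (2 libraries, replicates 1 and 4) and males of 12 to 14 weeks gave the young-SP group (3 libraries, replicates 1, 2 and 4). The labels place collection at 3.5 days after caging, whereas the study's methods give 3.0 days post coitum (dpc). All females were pseudopregnant and carried no embryo, no library of unmated females was analysed here, and a further young-SP sample that the study set aside was not analysed here. Neither source says whether a library is 1 uterus, so the p-values measure the spread between these libraries.

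Retinoic acid is made from retinol in a pair of oxidation steps and acts as the ligand of nuclear receptors. Rbp4 brings retinol through the blood, Stra6 lets it into the cell, Rdh10 turns it into retinaldehyde, and the Aldh1a enzymes turn retinaldehyde into retinoic acid. Crabp2 carries the acid to its receptors, and the Cyp26 enzymes hydroxylate it for removal, with Cyp26a1 itself induced by retinoic acid in many cells. In the mouse uterus retinoid metabolism takes part in the preparation for implantation, with Aldh1a2 known from the stroma and Cyp26a1 from the epithelium around the time of implantation.

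Transcripts of Aldh1a2, Rdh10 and Stra6 were the most abundant of the 9 in the young-SP uteri, and Cyp26a1 had the widest span over the libraries. Cyp26a1 was 30.5-fold higher in aged-SP 1 than in the next library, while aged-SP 4 held the lowest Cyp26a1 level of all 5. Stra6 was below the young-SP range in both aged-SP libraries, and Aldh1a3, a minor member in amount, was above it in both. None of the 9 genes passed the main test between the groups, the quasi-likelihood test of edgeR with Benjamini-Hochberg adjustment, where a call needed an adjusted p under 0.05 together with a log2 fold change beyond 1 in size, a rule that called 0.147% of the 17013 genes tested. An unadjusted p under 0.05 was met by 3 of the 9 genes, with 2 above and 1 below zero in log2 fold change, against 19.0% of all genes (9.62% higher and 9.36% lower). The groups did not overlap for 2 of the 9, 1 above and 1 below, against 38.8% of all genes (19.5% above and 19.3% below). DESeq2 called 1 of the 9, Stra6, by the same thresholds and in the lower direction, against 3.60% of its genes in all and 1.92% in that direction. The median log2 fold change, aged-SP over young-SP, was 0.34 over the 9 genes and 0.0072 over all genes tested, with 6 of the 9 higher and 3 lower.

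**Figure D1:**
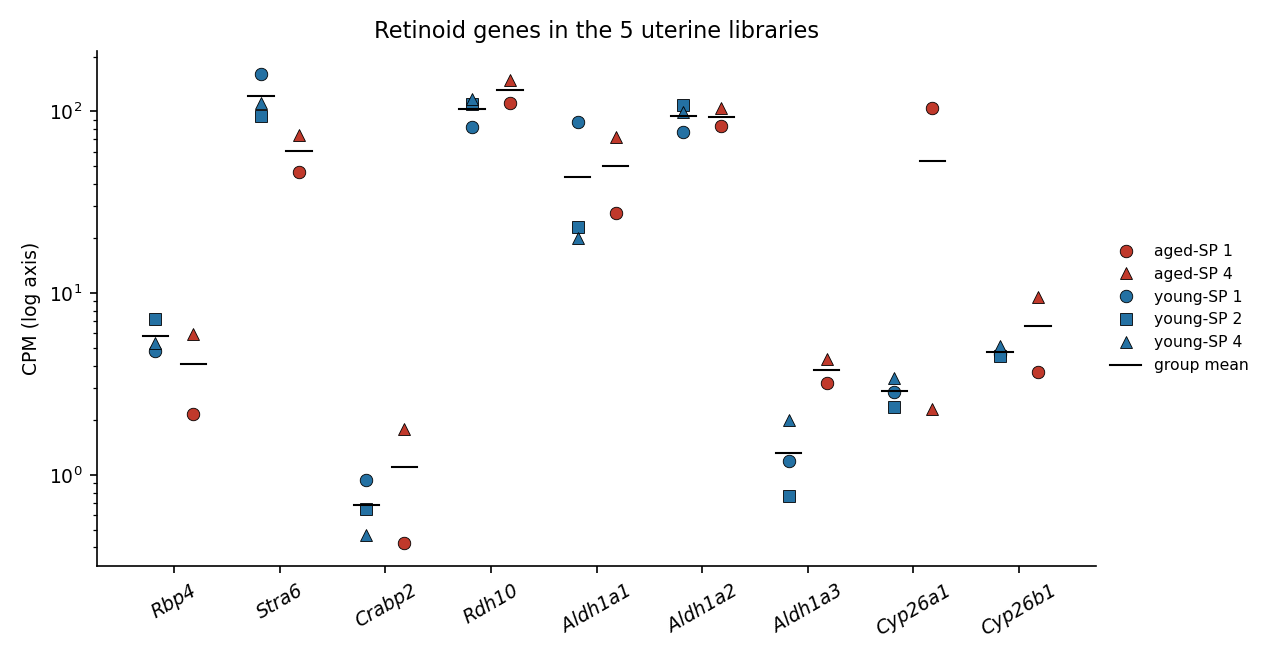
Counts scaled by library size (CPM, log axis) of the 9 genes in each library, in the order of retinol supply, synthesis and clearance; blue symbols are young-SP libraries, red symbols aged-SP libraries, and bars are group means. Cyp26a1 stood at 104 CPM in aged-SP 1 and between 2.30 and 3.40 CPM in the other 4 libraries, and the Stra6 and Aldh1a3 values of the groups did not overlap.

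Before the single genes, the libraries themselves call for a short description. Total counts lay between 15071914 and 16728601 and the scaling factors between 0.99 and 1.02, so that depth was nearly even. All pairs of libraries differed by more than counting error (chi-square over its degrees of freedom, 17.0 to 82.3). On the first principal component of the 500 most variable genes, which held 66.2% of the variance, young-SP 1 (-9.43) lay on the side of aged-SP 1 (-43.7) and aged-SP 4 (-25.5), away from young-SP 2 (41.9) and young-SP 4 (36.6). Of 4 listed gland markers, Prss28 and Prss29, serine proteases of the uterine glands around implantation, followed a like order, whereas Foxa2 overlapped between the groups (3.56 to 6.09 FPKM) and Cxcl15 ran the other way, with 48 and 30 counts in aged-SP 1 and 4 and 139, 341 and 122 in young-SP 1, 2 and 4. For the proteases the summed FPKM, the fragment count scaled by gene length and library total, was 3265 in aged-SP 1 and 2450 in aged-SP 4, as against 400.0, 2.87 and 9.97 in young-SP 1, 2 and 4. Summed FPKM of 7 stromal markers lay between 706 and 1023, and that of 6 epithelial markers without the estrogen-induced Ltf between 373 and 737, so that markers of both compartments of the labelled tissue were present. Of the 7 stromal markers 6 had a negative log2 fold change (median of the 7, -0.28). The groups did not overlap for 4 of the 7, all below, against 38.8% of all genes and 19.3% below. The part of glands and stroma in the differences described here was not tested. In whole uterus, fewer cells of a type and less RNA per cell cannot be told apart.

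The supply of retinol was represented by Rbp4 and Stra6. Rbp4, the carrier that brings retinol from the blood, had 36 and 93 counts in aged-SP 1 and 4, and 77, 122 and 80 counts in young-SP 1, 2 and 4. The low value was that of aged-SP 1 alone, and aged-SP 4 lay within the young-SP range. The log2 fold change was -0.51 with a standard error of 0.46 (edgeR's quasi-likelihood test, Benjamini-Hochberg adjusted p = 0.584), and without aged-SP 1 it was 0.036.

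Stra6, the membrane receptor that takes retinol from Rbp4, had 771 counts in aged-SP 1 and 1153 in aged-SP 4. In young-SP 1, 2 and 4 it had 2557, 1599 and 1670 counts. Both aged-SP libraries were below all young-SP libraries, with aged-SP 1 the lowest and young-SP 1 the highest. The aged-SP group had a mean CPM of 60.2 ± 19.2 (SD, n = 2) and the young-SP group one of 122 ± 33.9 (SD, n = 3), which was 2.03-fold higher. This made a log2 fold change of -1.02 with a standard error of 0.30, and the call depended on the tool. With edgeR's quasi-likelihood test the unadjusted p was 0.0167 and the Benjamini-Hochberg adjusted p 0.174, which missed the threshold, whereas DESeq2 gave an adjusted p of 0.0150 with a log2 fold change of -1.03. The direction was the same in all 12 alternative fits, between -0.73 without aged-SP 1 and -1.39 without aged-SP 4. Of the 7 stromal markers 6 had a negative log2 fold change too, whereas that of Dcn was 0.074. Hoxa10, Vim and Dcn overlapped between the groups. Pdgfra, the most negative of the stromal markers, had 34.2 and 34.3 FPKM in aged-SP 1 and 4 and 44.9, 62.9 and 55.5 FPKM in young-SP 1, 2 and 4. Its lowest young-SP value was that of young-SP 1, where Stra6 was highest. Pgr had 23.1 and 23.8 FPKM in aged-SP 1 and 4 and 33.4, 29.6 and 25.8 FPKM in young-SP 1, 2 and 4. Pgr was thus highest in young-SP 1 and lowest in aged-SP 1, as Stra6 was. In FPKM, the remaining stromal markers had their lowest young-SP value in young-SP 1, as Pdgfra had. The part of the stroma in the Stra6 levels was not tested.

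Crabp2, which hands retinoic acid to its nuclear receptors, was among the least abundant of the 9. It had 7 and 28 counts in aged-SP 1 and 4, and 15, 11 and 7 counts in young-SP 1, 2 and 4. The aged-SP libraries enclosed all young-SP values, and the log2 fold change of 0.68 with a standard error of 0.68 missed the threshold (edgeR's quasi-likelihood test, Benjamini-Hochberg adjusted p = 0.627).

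Synthesis starts with Rdh10, which oxidises retinol to retinaldehyde. Its counts were 1838 and 2333 in aged-SP 1 and 4, and 1313, 1861 and 1751 in young-SP 1, 2 and 4. Aged-SP 4 was the highest and young-SP 1 the lowest, while aged-SP 1 lay inside the young-SP range. Rdh10 had a log2 fold change of 0.34 with a standard error of 0.20 (edgeR's quasi-likelihood test, Benjamini-Hochberg adjusted p = 0.417).

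Among the retinaldehyde dehydrogenases, Aldh1a2 was the leading transcript in every library. Its FPKM was 36.2 and 45.8 in aged-SP 1 and 4, and 33.6, 48.9 and 43.3 in young-SP 1, 2 and 4. The groups overlapped fully, with the lowest and the highest value both in the young-SP group. Between the groups its log2 fold change was -0.017 with a standard error of 0.18 (edgeR's quasi-likelihood test, Benjamini-Hochberg adjusted p = 0.973). Aldh1a2 made up 65.4% to 90.8% of the summed Aldh1a FPKM, the lowest share being that of young-SP 1.

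Aldh1a1, which acts on retinaldehyde and on other aldehydes, varied between libraries more than between groups. Its FPKM was 5.55 and 14.6 in aged-SP 1 and 4, and 17.5, 4.78 and 4.06 in young-SP 1, 2 and 4. Young-SP 1 and aged-SP 4 were high and the other 3 libraries were low. Between the groups the log2 fold change was 0.20 with a standard error of 0.76 (edgeR's quasi-likelihood test, Benjamini-Hochberg adjusted p = 0.911), and it was -0.65 without aged-SP 4. The FPKM of Ltf, the estrogen-induced lactoferrin of the epithelium, was 776 and 1252 in the aged-SP libraries and 1045, 8.37 and 114 in the young-SP libraries, so that the 2 libraries with the most Aldh1a1 also had the most Ltf. Of the other epithelial markers, Krt8 had the same libraries at the top, whereas Krt18, Krt19, Epcam, Cdh1 and Muc1 did not. The part of Ltf-expressing epithelium in the Aldh1a1 levels was not tested. Of all stretches of 50 bases in the Aldh1a1 transcripts, 3.06% also occur in Aldh1a7, so that a small part of its reads may be shared.

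Aldh1a3 was the least abundant enzyme of the 3, with a mean FPKM of 0.286 ± 0.133 (SD, n = 3) for young-SP and 0.813 ± 0.179 (SD, n = 2) for aged-SP. It had 53 and 68 counts in aged-SP 1 and 4, and 19, 13 and 30 counts in young-SP 1, 2 and 4. Both aged-SP libraries lay above all young-SP libraries. Mean CPM was 2.86-fold higher in the aged-SP group, and the log2 fold change was 1.52 with a standard error of 0.44. The unadjusted p was 0.0152 and the Benjamini-Hochberg adjusted p 0.169 in edgeR's quasi-likelihood test, and 0.0750 after adjustment in DESeq2. The direction was the same in all 12 alternative fits, with log2 fold changes of 1.24 to 1.93, and no fit called the gene. Aldh1a3 made up 0.315% to 1.62% of the summed Aldh1a FPKM. Of all stretches of 50 bases in its transcripts, 1.15% also occur in other genes, and the part of shared reads in its low counts was not tested.

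Clearance was represented by Cyp26a1 and Cyp26b1. Cyp26a1 had 1717 counts in aged-SP 1, 36 counts in aged-SP 4, and 46, 40 and 51 counts in young-SP 1, 2 and 4. A single library was high, the other library of its group was the lowest of the 5, and the groups overlapped. In CPM, aged-SP 1 was 37.9-fold above the mean of the other 4 libraries. The log2 fold change of 4.20 with a standard error of 1.33 therefore rests on that library. It had an unadjusted p of 0.0220 and a Benjamini-Hochberg adjusted p of 0.194 in edgeR's quasi-likelihood test, and an adjusted p of 0.0602 in DESeq2. Without aged-SP 1 the log2 fold change was -0.32 (adjusted p = 0.766 in edgeR), and without aged-SP 4 it was 5.17 with an adjusted p of 0.0151 in edgeR, a fit in which the lone aged-SP library was assumed to vary like the others.

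Over the 5 libraries, the log2 CPM of Cyp26a1 spanned 5.42, the widest span among the 9 genes and rank 99 of the 17013 genes tested. Among 13434 genes with a mean of at least 50 counts, aged-SP 1 held 20 that were at least 10-fold above the next library, and Cyp26a1 was the fifth of these by that ratio. Each of the other 4 libraries held 0 such genes. The mean was taken over all 5 libraries, so that a gene could pass through aged-SP 1 alone, as Cyp26a1 did. The count of 20 and the rank are therefore descriptions and no test. The genes whose profile over the 5 libraries was nearest to that of Cyp26a1, by the root mean square difference of centred log2 CPM, were Havcr1 (0.410), Ccl2 (0.417) and Hsd11b1 (0.427). Havcr1, a cell surface receptor known from injured kidney epithelium, had 570 counts in aged-SP 1 and 5 to 10 counts elsewhere. Ccl2, a chemokine that draws monocytes, had 709 counts in aged-SP 1 and 31 to 38 elsewhere, and Hsd11b1, which activates glucocorticoids, had 5625 counts in aged-SP 1 and 61 to 151 elsewhere. Havcr1 and Ccl2 also reached the mean of 50 counts only through aged-SP 1.

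Cyp26b1, the other hydroxylase, did not share the departure of aged-SP 1. It had 61 counts in aged-SP 1, 149 in aged-SP 4, and 74, 76 and 77 in young-SP 1, 2 and 4. Here aged-SP 4 was the high library and aged-SP 1 the lowest, with the young-SP libraries close together between them. Cyp26b1 had a log2 fold change of 0.47 with a standard error of 0.41 (edgeR's quasi-likelihood test, Benjamini-Hochberg adjusted p = 0.570), and it was -0.37 without aged-SP 4. The third hydroxylase gene, Cyp26c1, was looked at after the values were seen. It lies 4409 bases from Cyp26a1 on chromosome 19 and had 93 counts in aged-SP 1, and 4, 5, 1 and 5 counts in aged-SP 4 and young-SP 1, 2 and 4, which did not pass the filter on low counts. Aged-SP 1 was thus 16.8-fold above the next library for this neighbour in CPM.

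**Figure D2:**
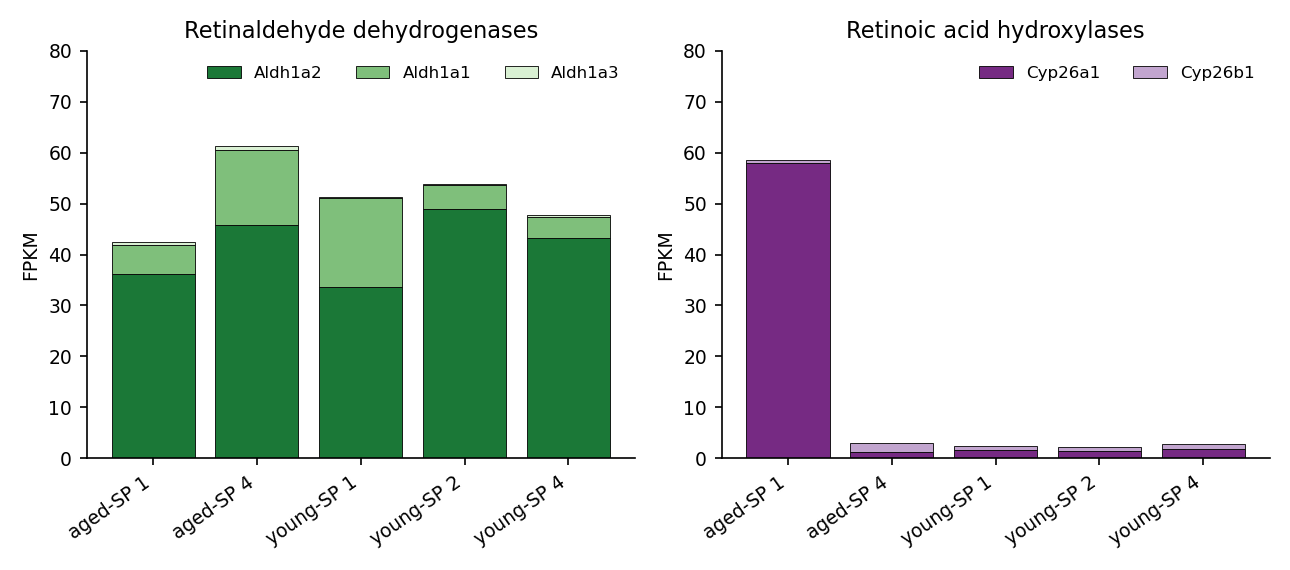
Stacked FPKM of the retinaldehyde dehydrogenases (left) and of the retinoic acid hydroxylases (right) in each library. The Aldh1a sums lay between 42.5 and 61.4 FPKM, and the Cyp26 sum was 58.6 FPKM in aged-SP 1 and 2.22 to 3.07 FPKM in the other libraries.

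Synthesis and clearance were set side by side by summing the 3 Aldh1a genes and both Cyp26 genes on the FPKM scale. The ratio of the Aldh1a sum to the Cyp26 sum was 0.725 in aged-SP 1 and 20.0 in aged-SP 4, and 20.8, 24.3 and 16.7 in young-SP 1, 2 and 4. In 4 of the 5 libraries synthesis transcripts thus outnumbered clearance transcripts in a narrow range, which held aged-SP 4 as well as the young-SP group, while in aged-SP 1 the sums were near each other. On the CPM scale, with no allowance for length, the ratio in aged-SP 1 was 1.06, so that which sum was larger there depended on the scale. The log2 ratio differed by -2.42 between the group means and by -0.027 without aged-SP 1. Cyp26a1 made up 98.8% of the Cyp26 sum in aged-SP 1, 42.2% in aged-SP 4, and 61.4% to 66.7% in the young-SP libraries. These are transcript levels, and enzyme activity was not measured.

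Since FPKM allows for length, the genes could also be ordered by their level in the young-SP group. Aldh1a2 came first with 42.0 ± 7.77 FPKM (SD, n = 3), followed by Rdh10 with 24.8 ± 4.57 and Stra6 with 20.9 ± 5.59. Aldh1a1 had 8.79 ± 7.57 FPKM, Rbp4 4.49 ± 1.05 and Cyp26a1 1.63 ± 0.274. Cyp26b1 with 0.890 ± 0.0559, Crabp2 with 0.519 ± 0.177 and Aldh1a3 with 0.286 ± 0.133 FPKM were the lowest. Ranges of neighbours in this order overlapped for Rdh10 and Stra6, for Stra6 and Aldh1a1, for Aldh1a1 and Rbp4, and for Crabp2 and Aldh1a3. The range of Aldh1a2 stood clear of that of Rdh10, and the ranges from Rbp4 through Cyp26a1 and Cyp26b1 to Crabp2 were separate. Over all 5 libraries every pair of neighbours overlapped. Rdh10 and Aldh1a2, which led the order, also had the smallest root mean square difference of centred log2 CPM among pairs of the 9 genes, 0.188. They had the narrowest spans of log2 CPM over the libraries too, 0.86 and 0.50. The measure is small for any pair of genes that vary little, so it does not show that they varied together.

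**Figure D3:**
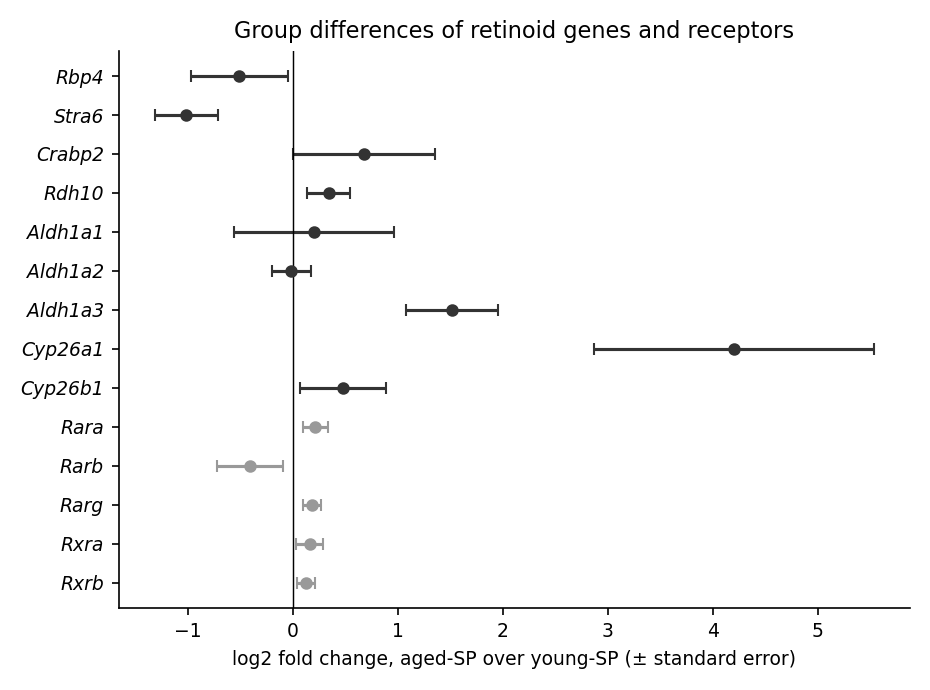
Log2 fold change (aged-SP over young-SP) with its standard error for the 9 genes (dark) and for the 5 tested retinoid receptor genes (grey). Cyp26a1 had the largest fold change (4.20) and the largest standard error (1.33), and the receptors lay between -0.41 and 0.21.

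Promoters were read to see which of these genes hold the binding motif of the retinoic acid receptors next to their start, because Cyp26a1 and the receptor gene Rarb are both known to be induced by retinoic acid through such a motif. The search covered the 250 bases before the start on both strands, and looked for a pair of 6-base sites in the same orientation with 5 bases between them, each site being AGGTCA or one of its known variants. These variants were AGTTCA, along with the site GGGTCA and the site GGTTCA. Of the 9 genes 6 had a RefSeq promoter on GRCm38.p6, and 1 of these 6, Cyp26a1, held the motif. Among all retinoid genes, receptor genes and response genes considered, 44 of 57 had a promoter and 2 held the motif, Cyp26a1 and Rarb. Of all genes, 28 of 27025 held it (0.104%). Since these 2 were the known cases that prompted the search, their number is no test of the retinoid genes as a set. Both promoters are shown 5′ to 3′ on the strand of the gene, with the match in capitals, because the pair differed in the one library where Cyp26a1 was high.
Cyp26a1, chr19:37697558-37697807, plus strand: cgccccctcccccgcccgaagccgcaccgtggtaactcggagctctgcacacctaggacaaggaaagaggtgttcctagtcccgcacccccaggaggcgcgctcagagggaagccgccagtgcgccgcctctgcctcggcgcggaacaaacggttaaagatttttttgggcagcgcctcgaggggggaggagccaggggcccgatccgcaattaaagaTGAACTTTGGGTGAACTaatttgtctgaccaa
Rarb, chr14:16575477-16575726, minus strand: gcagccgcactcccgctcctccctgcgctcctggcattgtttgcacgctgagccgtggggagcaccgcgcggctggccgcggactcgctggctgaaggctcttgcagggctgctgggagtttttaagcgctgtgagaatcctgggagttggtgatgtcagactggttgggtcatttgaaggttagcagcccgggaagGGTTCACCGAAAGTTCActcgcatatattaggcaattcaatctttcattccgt
The match lay 16 to 32 bases before the start of Cyp26a1, read on the opposite strand, and 37 to 53 bases before the start of Rarb. Rarb had 24 and 35 counts in aged-SP 1 and 4, and 39, 47 and 32 counts in young-SP 1, 2 and 4. Its count in aged-SP 1, where Cyp26a1 had 1717, was the lowest of the 5. A match of letters is a description of the window and does not show binding.

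The 9 genes lie on 6 chromosomes, and 3 of them on chromosome 19 in the coordinates of GRCm38. Cyp26a1 occupies chr19:37697808-37701528 on the plus strand and Rbp4 chr19:38116620-38125321 on the minus strand, 415091 bases apart. Aldh1a1 lies at chr19:20492715-20643462 on the plus strand. Stra6 (chr9:58063788-58153996) and Aldh1a2 (chr9:71215789-71296243) share chromosome 9, both on the plus strand. Rdh10 lies at chr1:16105774-16133734 and Crabp2 at chr3:87948666-87953376 on the plus strand, and Cyp26b1 at chr6:84571414-84593908 and Aldh1a3 at chr7:66390890-66427517 on the minus strand. No exon of the 9 overlaps an exon of another gene. Rbp4 did not share the profile of Cyp26a1 at that distance, since Rbp4 was lowest in the library where Cyp26a1 was highest. Cyp26c1, 4409 bases from Cyp26a1 and not one of the 9, was highest in that library too, with 93 counts in aged-SP 1.

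Of the nuclear receptors through which retinoic acid acts, none passed the test between the groups. Of the 6 genes, 5 were tested, and 0 were called by edgeR's quasi-likelihood test or by DESeq2, with 0 at an unadjusted p under 0.05 in edgeR. Log2 fold changes were 0.21 for Rara, -0.41 for Rarb, 0.18 for Rarg, 0.16 for Rxra and 0.12 for Rxrb, with Benjamini-Hochberg adjusted p-values of 0.338 to 0.535 in edgeR. The groups did not overlap for 3 of the 5, all above, against 38.8% of all genes and 19.5% above. Rxrg was not tested, with 6 and 7 counts in aged-SP 1 and 4, and 0, 9 and 6 in young-SP 1, 2 and 4.

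The other genes of retinoid uptake, storage, oxidation and binding were 30, of which 24 were tested. None was called by edgeR's quasi-likelihood test, whose Benjamini-Hochberg adjusted p-values ran from 0.0734 to 0.858. DESeq2 called 4 of the 24, which were Lrp2, Rdh1, Ttr and Fabp5, against 3.60% of its genes in all. An unadjusted p under 0.05 in edgeR was met by 7 of the 24, against 19.0% of all genes, with 2 positive and 5 negative log2 fold changes (9.62% and 9.36% of all genes). The groups did not overlap for 12 of the 24, 6 in each direction, against 38.8% of all genes. The median log2 fold change of the 24 was 0.16.

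Lrp2, or megalin, an endocytic receptor that takes up retinol bound to Rbp4, differed most clearly of these. It had 410 and 270 counts in aged-SP 1 and 4, and 2818, 6123 and 8296 counts in young-SP 1, 2 and 4. Every aged-SP value was far below every young-SP value, and young-SP 1 was the lowest of its group. Lrp2 had a log2 fold change of -4.11 with a standard error of 0.57, with a Benjamini-Hochberg adjusted p of 0.0734 in edgeR's quasi-likelihood test and of 1.50e-17 in DESeq2. Among the gland markers Prss28 and Prss29 ran against Lrp2, Cxcl15 ran the same way and Foxa2 overlapped between the groups, and 6 of 7 stromal markers had a negative log2 fold change. The part of glands and stroma in the Lrp2 levels was not tested.

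Ttr, the plasma partner of Rbp4, had 4 and 0 counts in aged-SP 1 and 4, and 26, 39 and 19 in young-SP 1, 2 and 4. Its log2 fold change was -3.73, with a Benjamini-Hochberg adjusted p of 0.123 in edgeR's quasi-likelihood test and of 0.00474 in DESeq2. The value rests on few reads, since the log2 fold change was -2.81 without aged-SP 4, and without aged-SP 1 the aged-SP group had 0 counts. Stra6l, a receptor related to Stra6 that was looked at after its values were seen, had 537 and 172 counts in aged-SP 1 and 4, and 195, 116 and 111 in young-SP 1, 2 and 4. The summed FPKM of 3 liver markers did not exceed 0.239 in any library.

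The set named by rule was completed by 3 oxidation and binding genes. Rdh1, another retinol dehydrogenase, had 40 and 58 counts in aged-SP 1 and 4, and 141, 210 and 185 in young-SP 1, 2 and 4. Its log2 fold change was -1.87 with a standard error of 0.29, and its Benjamini-Hochberg adjusted p was 0.0760 in edgeR's quasi-likelihood test and 4.91e-06 in DESeq2. Fabp5, a fatty acid binding protein that can also bind retinoic acid, had 324 and 480 counts against 142, 200 and 133. Its log2 fold change was 1.35 with a standard error of 0.25, and its Benjamini-Hochberg adjusted p was 0.0893 in edgeR's quasi-likelihood test and 0.000276 in DESeq2. Adh5, the formaldehyde-oxidising alcohol dehydrogenase, had 1700 counts in both aged-SP libraries and 2040, 2855 and 2309 in the young-SP libraries, a log2 fold change of -0.51 (edgeR's quasi-likelihood test, Benjamini-Hochberg adjusted p = 0.155). In all 3 the groups did not overlap, as in 38.8% of all genes, and the 3 were named for their small unadjusted p.

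**Figure D4:**
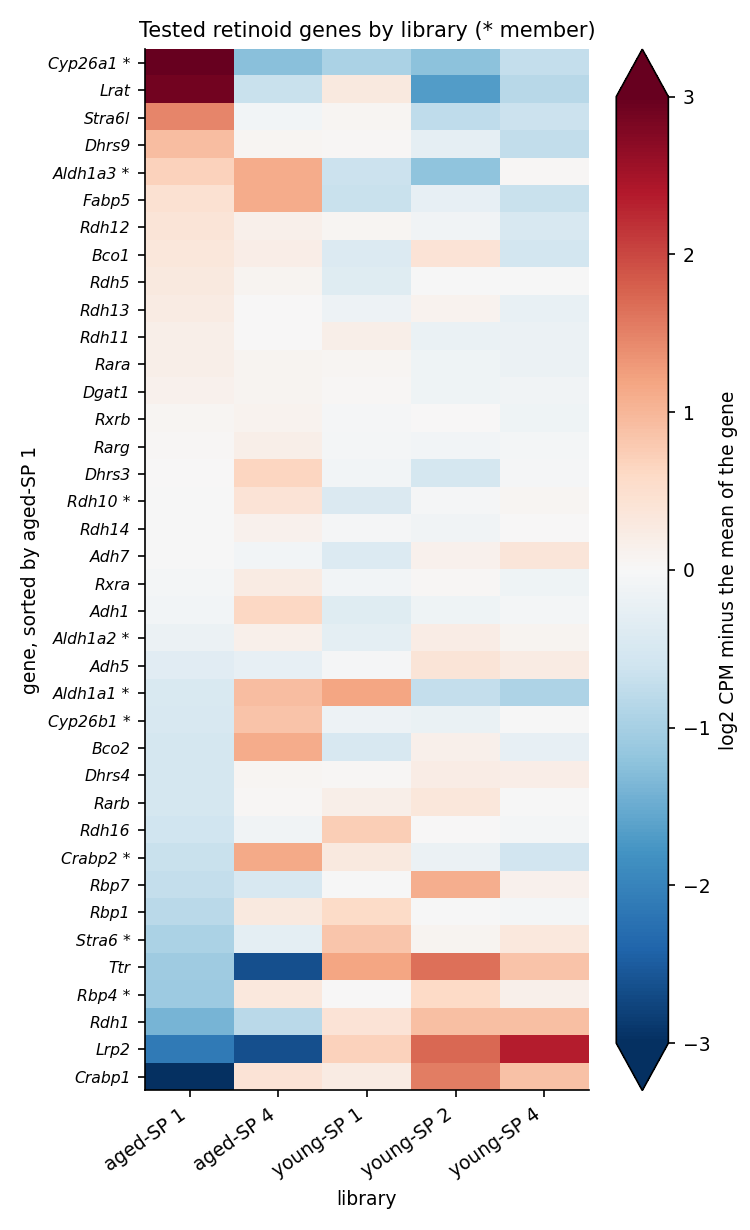
Log2 CPM of 38 tested retinoid genes minus the mean of each gene, by library, sorted by aged-SP 1 (red higher, blue lower, colours capped at 3, asterisks mark the 9 genes). The highest value fell in aged-SP 1 for 10 genes, in aged-SP 4 for 12, and in young-SP 1, 2 and 4 for 4, 10 and 2.

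The heat map of the 38 tested genes showed where aged-SP 1 stood apart. Besides Cyp26a1, the storage enzyme Lrat, which esterifies retinol, was high there, with 1116 counts in aged-SP 1, 88 in aged-SP 4, and 177, 46 and 75 in young-SP 1, 2 and 4. Lrat was picked out after its values were seen. Aged-SP 1 was 6.09-fold above the next library in CPM, and the log2 fold change of 2.54 had a Benjamini-Hochberg adjusted p of 0.274 in edgeR's quasi-likelihood test. Stra6l at 2.66-fold and Dhrs9, a dehydrogenase of retinol and steroids, at 1.82-fold above the next library were likewise highest in aged-SP 1. Both were picked after their values were seen. The remaining tested genes with their highest value in aged-SP 1 were only 1.01-fold to 1.19-fold above the next library. More of the 38 genes, 12, were highest in aged-SP 4, and young-SP 2 held as many as aged-SP 1, 10. Dhrs3, which turns retinaldehyde back into retinol, was not highest in aged-SP 1. It had 923 and 1370 counts in aged-SP 1 and 4, and 841, 651 and 814 in young-SP 1, 2 and 4.

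Genes that retinoic acid induces in many cells were set beside the 9. Of 18 such genes 16 were listed and 14 tested, and Cyp26a1, Stra6, Crabp2, Rarb and Dhrs3 of the 14 have been described above. None was called by edgeR's quasi-likelihood test, and DESeq2 called 3 of the 14, Stra6, Rarres1 and Ripply3, against 3.60% of its genes in all. An unadjusted p under 0.05 in edgeR was met by 1 gene with a positive log2 fold change, Cyp26a1 (9.62% of all genes), and by 3 with a negative one, Rarres1, Ripply3 and Stra6 (9.36% of all genes), and the median log2 fold change was -0.093. Rarres1, known for its induction by a synthetic retinoid, had 4 and 1 counts in aged-SP 1 and 4, and 21, 20 and 23 in young-SP 1, 2 and 4 (log2 fold change -3.05, standard error 0.57, Benjamini-Hochberg adjusted p = 0.0899 in edgeR and 0.0123 in DESeq2). Ripply3, a repressor of transcription, had 38 and 35 counts against 83, 86 and 62 (log2 fold change -1.08, standard error 0.23, Benjamini-Hochberg adjusted p = 0.111 in edgeR and 0.0276 in DESeq2). In neither gene, both named for a small unadjusted p, did the groups overlap. The groups did not overlap for 4 of the 14, 1 above and 3 below, against 38.8% of all genes (19.5% above and 19.3% below). The log2 fold change of Rarres1, with its few reads, was -4.23 without aged-SP 1 and -2.44 without aged-SP 4. Besides Cyp26a1, aged-SP 1 was the highest library for Tgm2, a transglutaminase, with 732 CPM against 364 to 514 CPM elsewhere, and for the homeobox gene Hoxb4, with 17.7 CPM against 9.34 to 14.6 CPM elsewhere, both named after their values were seen. For the other tested response genes, Rarb, Stra6, Crabp2, Rarres1 and Ripply3 among them, another library was highest.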

How the data were processed

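Counts of RNA-seq reads per gene in 5 libraries of whole uterus were used as deposited by the authors, who aligned reads with HISAT2 2.1.0 and counted with HTSeq 0.6.0 (the submitters' notes also name Bowtie2 2.2.3). FPKM as deposited by the authors equals the count over gene length and total count, which was checked to within 1e-06, and served for levels of genes, their sums and ratios, and not for tests. The deposited columns of the authors' DESeq2 comparison (mean, fold change, p-values) were not used, and 0 columns of values per sample were left out.

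Counts were filtered with filterByExpr, scaled by TMM and compared between the groups with edgeR 4.0.16 (glmQLFit, glmQLFTest, two-sided, R 4.3.3), with p adjusted over 17013 genes. The common dispersion was 0.0629, a biological coefficient of variation of 25.1%. The standard error is the absolute log2 fold change over the square root of F. DESeq2 1.42.0, limma 3.58.1, other scalings, other filters, a replicate block and each library left out were alternatives. Log2 CPM used a prior count of 2. Scripts were tested on simulated data. Numbers, tables and plots were made with numpy 2.4.6, pandas 2.3.3 and matplotlib 3.10.9 in Python 3.11.15.

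The genes and lists were chosen with earlier results of these data known. Genes named are all 9 genes and 6 receptors, up to 5 each of the other retinoid and of the response genes with the smallest unadjusted p under 0.05, and the 3 nearest profiles to Cyp26a1. Marker lists covered epithelium, glands, stroma, myometrium, endothelium, mesothelium, leukocytes, dendritic cells, ovary, oviduct, adipose tissue, vagina and cervix, and liver.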

Additional observations from a re-analysis of the deposited data

How the results depend on the processing

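The edgeR test called 25 genes in all. It called 18 with DESeq2 size factors, 203 with no filter on low counts, 2 with the replicate block, and 1 to 578 with 1 library left out (1 without aged-SP 1, 49 without aged-SP 4, 578 without young-SP 1, 3 without young-SP 2, 2 without young-SP 4). DESeq2 called 632. Of the 9 genes 0 were called, except 1 (Stra6) by DESeq2 and 0 to 1 with 1 library left out (Cyp26a1 without aged-SP 4). Of the other retinoid genes 0 were called, except 4 by DESeq2, 2 with no filter (Lrp2 and Rdh1) and 0 to 2 with 1 library left out (the same 2, without young-SP 1). Receptor calls were 0 in every alternative.

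With 1 library left out, the log2 fold change of 7 genes turned. It ran from -0.32 (without aged-SP 1) to 5.17 for Cyp26a1, from -1.41 to 0.036 (without aged-SP 1) for Rbp4, and, with the lowest value in each case without aged-SP 4, from -0.37 to 1.0 for Cyp26b1, from -0.69 to 1.37 for Crabp2, from -0.65 to 1.19 for Aldh1a1 (also negative without young-SP 2 or young-SP 4) and from -0.0090 to 0.30 for Rxra. That of Aldh1a2 ran from -0.19 to 0.14 (positive without aged-SP 1, young-SP 2 or young-SP 4) and was 0.10 with the replicate block. The cause was not tested. The log2 ratio of Aldh1a to Cyp26 lay between -4.81 and -0.027 with 1 library left out. Limma-voom gave 2.50 for Cyp26a1 and the block 2.59. Crabp2, Ttr and Rarres1 gave no value with at least 10 counts required in every library. Replicate numbers 1 and 4 occur in both groups, and same-numbered libraries deviated from their group means with correlations of 0.152 and 0.136. With 2 aged-SP libraries these deviations mirror each other, so that young-SP 1 gave 0.152 with aged-SP 1 and -0.152 with aged-SP 4. The 2 correlations are therefore not separate evidence of pairing, and the libraries are known to share only a number.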

Other observations

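Marker lists of tissues and cell types gave 0 genes called by edgeR in each list. DESeq2 called the gland gene Cxcl15 and the oviduct gene Pax8, both named after their values were seen, where it called 3.60% of its genes in all. DESeq2 gave no p-value for Prss28 and Prss29, whose log2 fold changes there were 5.18 and 4.11, so that they could not be called by it. Pax8 had 906 and 429 counts in aged-SP 1 and 4, and 406, 243 and 254 in young-SP 1, 2 and 4, whereas Cxcl15 had 48 and 30 counts against 139, 341 and 122. Summed FPKM over the libraries, in the order aged-SP 1 and 4 and young-SP 1, 2 and 4, was 2805, 3617, 3291, 3466 and 4831 for the 6 myometrial genes. Leukocyte genes without Lyz2 summed to 65.1 to 90.4 FPKM, endothelial genes to 74.3 to 132 FPKM and dendritic cell genes to 7.04 to 8.89 FPKM. Mesothelial genes summed to at most 37.4 FPKM and both oviduct genes to 12.5 to 67.7 FPKM, the highest sums being those of young-SP 4. Ovarian genes summed to 4.33 to 16.1 FPKM, of which Star made up 4.07 to 15.8 FPKM. Amh, Lhcgr and Cyp11a1 of that list each reached at most 0.186 FPKM. Adipose genes (at most 2.06 FPKM) and vaginal and cervical genes (at most 0.641 FPKM) were low throughout. For the lists given here aged-SP 1 was not the library with the highest sum. The 4 gland genes had their highest sum, 3271 FPKM, in that library, of which Prss28 and Prss29 made up 3265 FPKM.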
